A study of Mus musculus with 8 samples.

Results

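The adhesion G protein-coupled receptors (adhesion GPCRs) were followed in nuclear RNA of cortical GABAergic neurons, the inhibitory neurons of the cortex. Members were taken by symbol from the gene column of the count files, as all names from Adgra to Adgrg, Adgrl and Adgrv that end in a single digit, together with Celsr1, Celsr2 and Celsr3. This gave 30 genes of the 55341 listed. The pseudogene Adgrd2-ps falls outside the naming rule and was not included.

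Adhesion GPCRs are receptors with a very long extracellular part that binds proteins of the matrix or of neighbouring cells, joined to a membrane-spanning part that signals through heterotrimeric G proteins. Many are cut by their own GAIN domain at a site close to the membrane, which leaves a tethered peptide that can activate the receptor. In the brain the latrophilins (Adgrl) and the brain-specific angiogenesis inhibitors (BAI, Adgrb) act at synapses, and the Celsr receptors act in planar cell polarity and in the guidance of axons and migrating neurons. Other members mark blood vessels, immune cells or glia.

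The series compared 2 groups of 4 mice, those of the PTU group described as juvenile, with 1 library per mouse. All 8 mice were hypothyroid, because propylthiouracil (PTU), a drug that blocks the synthesis of thyroid hormone (TH), had been given to their mothers during gestation, and all carried a Cre-dependent reporter that labels the nuclei of GABAergic neurons. The PTU group (mice 9 to 12) had no further treatment named, and the PTU+TH group (mice 13 to 16) had TH injected into the peritoneum 24 h ahead of brain collection. Neither the Cre driver nor the exact age, sex or litter is given, and no group of normal mice is among the samples, so the comparison is of TH given against not given and not of hypothyroid against normal mice. Libraries held 21762810 to 29084071 counts. The GABAergic genes Gad1 and Gad2 averaged 446 and 442 CPM (counts relative to library size, with TMM scaling) over the 8 libraries. Y-linked counts were 0 in the 2 PTU+TH mice 15 and 16 and present in the other 6 libraries. Summed over their marker lists, endothelial genes were highest in mouse 10, and oligodendrocyte, astrocyte, excitatory neuron and microglia genes in mouse 15.

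Adgrb3 and Adgrl3 dominated the family. They took on average 37.8% and 30.7% of all adhesion GPCR counts, and together between 62.3% of them in mouse 9 and 73.5% in mouse 16. Adgrl2 followed with 6.84%, Celsr3 with 5.99% and Adgra1 with 4.98%, while Adgra3 held 0.520% in PTU mouse 11, its lowest library, and 1.49% in PTU+TH mouse 13, its highest. The family as a whole took between 0.288% of the counts of mouse 9 and 0.382% of those of mouse 16. Adgrb3 and Adgrl3 also have the longest gene bodies of the 30 members, 762232 and 804996 bases in GENCODE M21. Per kilobase of gene body outside other genes, Celsr3 stood highest with 7.58 CPM, before Adgra1 with 3.82 and Celsr2 with 2.84, and Adgrb3 and Adgrl3 had 1.84 and 1.32, the ranks 5 and 8. Per kilobase of annotated exon, the order was Adgrb3 with 69.8 CPM, Adgrl3 with 59.2 and Adgra1 with 31.1, over both groups together. Nuclear RNA holds unspliced transcript, and how introns were counted is not given in the sources used here. All 1265 protein-coding genes that lie wholly inside another gene were listed at 0, a pattern that counting over whole gene bodies with shared reads dropped would leave. The share of reads from introns was not measured, so neither length scale can be preferred from these counts. On the gene-body scale Adgrb3 and Adgrl3 do not come first, as they do in total counts and per exon length.

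**Figure D1:**
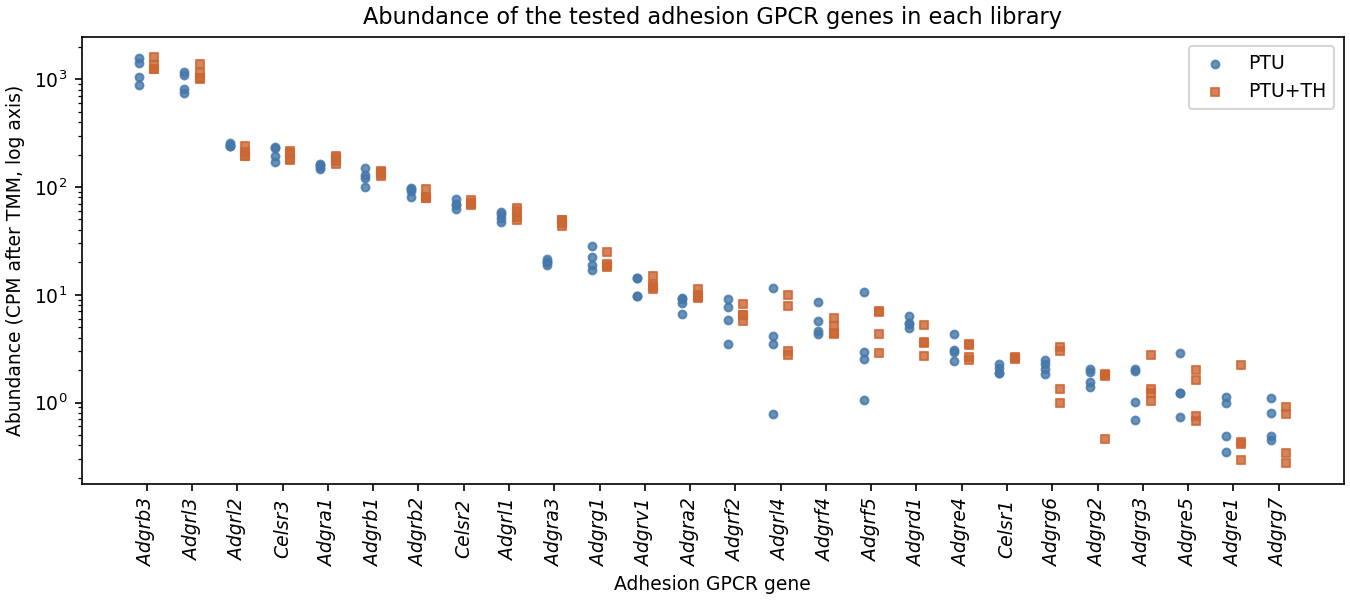
Abundance in CPM (log axis) of the 26 tested adhesion GPCR genes in each library, with circles for the 4 PTU mice and squares for the 4 PTU+TH mice, ordered by mean. Adgrb3 and Adgrl3 lie above all other members in every library, and Adgra3 is the gene whose 2 groups stand clearly apart.

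Of the 30 genes, 4 were too low to be tested. Adgrf1, Adgrf3, Adgrg4 and Adgrg5 had between 22 and 59 counts summed over the 8 libraries, and 26 members passed the filter on low counts. Among those, 1 was called higher in PTU+TH and 0 lower (edgeR's quasi-likelihood test, threshold 0.05 after adjustment), where 1.49% of the 17355 genes tested were called higher and 0.634% lower (2.12% in either direction). At an unadjusted p under 0.05 there were 3 members, Adgra3, Adgra1 and Adgrd1, against 12.8% of all genes. DESeq2 and limma voom each called 1 member, which was again Adgra3. Log2 fold changes were above 0 in 16 tested members and below 0 in 10, with a median of 0.06 against -0.01 over all genes tested. In 4 members all PTU+TH libraries lay above all PTU libraries, which held for 4.68% of all genes, and in 0 members they lay below, which held for 4.03% (8.71% either way). With 1 call among 26 genes, the family is described gene by gene.

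Adgra3 (also known as GPR125), a receptor without a well-established ligand that binds the scaffold protein Dlg1, more than doubled. It stood at 18.9, 21.4, 20.04 and 20.3 CPM in PTU mice 9 to 12 and at 49.5, 46.2, 43.0 and 49.4 CPM in PTU+TH mice 13 to 16. The 4 values of each group lay close together and the groups were far apart. The means were 20.2 ± 1.01 and 47.0 ± 3.08 CPM (SD, n = 4 each), a 2.33-fold rise with a 95% interval from 2.02 to 2.69 (log2 fold change 1.22, SE 0.10, edgeR adjusted p = 1.88e-05). These values rest on 405 to 568 counts per library in PTU and 947 to 1343 in PTU+TH. By p-value Adgra3 was number 8 of all 17355 genes, and by fold change number 69 of the 258 genes called higher, whose median log2 fold change was 0.80. In nuclei pooled by a sort, more nuclei of a class that expresses the gene and more RNA per nucleus cannot be told apart.

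Adgra3 kept its call under all 19 alternatives, with log2 fold changes from 1.20 to 1.29 and an adjusted p of at most 0.00203. That largest p came from the 6 libraries with Y-linked counts, where the log2 fold change was 1.25. Of the lists of class and cell type markers, the SST class list was the one whose sums did not overlap. They were 583 to 702 CPM under PTU alone and 471 to 575 CPM in PTU+TH, with 1 of 5 members called, Calb1, which fell. Calb1 averaged 198 CPM under PTU alone and 120 CPM in PTU+TH, and its groups did not overlap. The groups of Sst (log2 change -0.09), Crhbp, Elfn1 and Nos1 overlapped. The PV class list spanned 503 to 716 CPM under PTU alone and 522 to 700 in PTU+TH, and 1 of its 5 members, Syt2, was called higher. The VIP class list spanned 208 to 296 CPM under PTU alone and 190.0 to 211 in PTU+TH, with 1 of 5 members called, Htr3a, which fell (log2 change -1.11, edgeR adjusted p = 0.0344). The LAMP5 class list spanned 1173 to 1329.9 CPM under PTU alone and 1075 to 1232 in PTU+TH, with 1 of 5 members called, Gabrd, which rose (log2 change 1.40, edgeR adjusted p = 1.67e-05). Log2 fold changes were above 0 in 1 of the 5 SST, 3 of the 5 PV, 1 of the 5 VIP and 2 of the 5 LAMP5 markers, so the markers of a class did not all lie on the same side of 0. The 1 call in each list of 5 stands beside 1.49% of all genes called higher and 0.634% called lower. The part of these class markers in the rise of Adgra3 was not tested.

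The gene lies on chromosome 5 of mouse build GRCm38 (49959956 to 50059006, minus strand), is protein-coding and shares no base with another annotated gene. Its nearest relatives did not move with it to the same extent. Adgra1 (GPR123), a receptor of the brain whose ligand is not established, stood at 146, 158, 163 and 153 CPM without TH and at 165, 185, 176 and 196 CPM in PTU+TH. Every PTU+TH value was above every PTU value, by a small margin. The means were 155 ± 7.24 and 180.5 ± 13.3 CPM (SD, n = 4 each), and the difference did not pass (log2 fold change 0.22, 95% interval 0.03 to 0.41, edgeR adjusted p = 0.307). Adgra2 (GPR124), a co-receptor with Reck for Wnt7 ligands in brain blood vessels, stood at 6.63, 9.37, 9.15 and 8.31 CPM without TH and at 11.4, 9.97, 9.40 and 9.47 CPM in PTU+TH. The groups nearly met, with 9.37 in PTU mouse 10 just under 9.40 in PTU+TH mouse 15, and the gene was not called (log2 change 0.27, edgeR adjusted p = 0.547).

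The difference between the changes of the 3 Adgra genes was tested within libraries. The log2 ratio of Adgra3 to Adgra1 was -2.94 ± 0.06 in PTU and -1.94 ± 0.14 in PTU+TH (SD, n = 4 each), a difference of 1.00 (exact permutation test, two-sided, p = 0.0286, adjusted over 2 ratios 0.0286). The log2 ratio of Adgra3 to Adgra2 was 1.28 ± 0.17 in PTU and 2.23 ± 0.11 in PTU+TH, a difference of 0.95 with the same exact permutation p of 0.0286. This is the smallest p that 70 arrangements allow. In both ratios all PTU+TH libraries lay above all PTU libraries. Adgra1 and Adgra2 were added after their values were seen, when the groups of Adgra3 were known to lie far apart. The outcome of both tests was thus set in advance, and they add no support to the call of Adgra3.

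**Figure D2:**
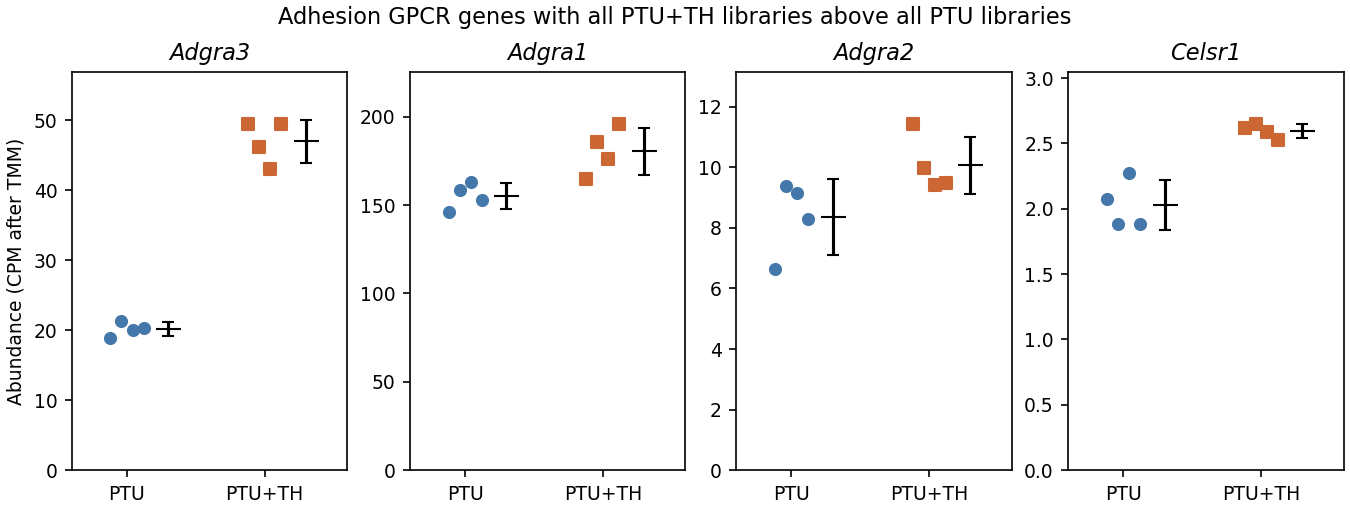
Abundance in CPM of the 4 members whose PTU+TH libraries all lay above all PTU libraries, with 1 point per mouse and the mean ± SD (n = 4) beside the points. The groups of Adgra3 are separated by more than 20 CPM, and those of Adgra1, Adgra2 and Celsr1 lie close together.

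The sequences before the start sites of Adgra3 and Adgra1 are shown because Adgra3 was called and its paralog Adgra1 was not. That of Adgrv1 is shown because it holds the motif searched for. They come from RefSeq on build GRCm38.p6, are written 5′ to 3′ on the strand of the gene and stop where the GENCODE gene body begins. Capitals mark AGGTCA, the 6-base motif bound by thyroid hormone receptors and several other nuclear receptors.
Adgra3, minus strand, chr5:50059007-50059246: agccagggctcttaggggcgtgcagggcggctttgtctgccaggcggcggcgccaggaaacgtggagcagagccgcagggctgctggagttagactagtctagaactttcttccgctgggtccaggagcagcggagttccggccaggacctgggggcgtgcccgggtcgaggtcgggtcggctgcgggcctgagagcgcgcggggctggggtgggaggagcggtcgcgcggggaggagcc
Adgra1, plus strand, chr7:139833924-139834173: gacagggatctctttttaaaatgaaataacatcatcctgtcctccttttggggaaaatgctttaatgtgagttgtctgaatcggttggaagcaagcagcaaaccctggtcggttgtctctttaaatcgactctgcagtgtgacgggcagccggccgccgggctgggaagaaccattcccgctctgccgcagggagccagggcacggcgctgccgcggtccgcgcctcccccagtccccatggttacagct
Adgrv1, minus strand, chr13:81633155-81633394: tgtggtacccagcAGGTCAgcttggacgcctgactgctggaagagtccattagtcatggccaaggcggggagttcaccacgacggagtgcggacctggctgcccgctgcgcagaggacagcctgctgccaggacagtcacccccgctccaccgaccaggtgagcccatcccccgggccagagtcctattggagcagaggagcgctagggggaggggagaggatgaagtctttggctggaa

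RefSeq start sites were matched for 22 of the 30 members, with 26 windows of 250 bases. On either strand, AGGTCA was found in 1 of those 26 windows, that of Adgrv1, and in 14% of the 32851 windows of all genes. The spaced repeat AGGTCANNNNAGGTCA, which contains that motif at both ends, was found in 0 of the 26 and in 0.0152% of all windows. Adgrv1, the member with the motif, had a log2 fold change of 0.08 (edgeR adjusted p = 0.93). The window of Adgra3 has 71.6% G and C, that of Adgra1 56.4% and that of Adgrv1 64.4%. A match is only a match of letters, and these windows reach no further than 250 bases before the start.

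Adgra3 lies between 2 neighbours that had higher means in PTU+TH. Among protein-coding genes, the next on one side is Kcnip4, which encodes a protein that binds and modulates Kv4 potassium channels, 435 kb away. The next on the other side is Ppargc1a, the coactivator PGC-1α, 1395.2 kb away. Kcnip4 stood at 948, 1157, 2062 and 1764 CPM without TH and at 2599, 2218, 3006 and 3399 CPM in PTU+TH. The PTU values were widely spread and all PTU+TH values lay above them, as in 4.68% of all genes. Kcnip4 was not called (log2 change 0.92, edgeR adjusted p = 0.0892), and its adjusted p was between 0.00134 and 0.594 over the alternatives. Ppargc1a rose, with means of 121 ± 19.3 and 172 ± 16.6 CPM (n = 4 each, SD; log2 change 0.51, edgeR adjusted p = 0.0407). It lost the call when any of mice 10, 12, 13, 14, 15 or 16 was left out (adjusted p up to 0.141), with mice 10 and 15 both out (0.259), with Y-linked counts as a covariate (0.29) and among the 6 libraries that have such counts (0.384). Further out, Lcorl, Slit2 and 5730480H06Rik on one side and Dhx15, Sod3 and Ccdc149 on the other had log2 fold changes from -0.24 to 0.19, and 0 of these 6 were called.

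**Figure D3:**
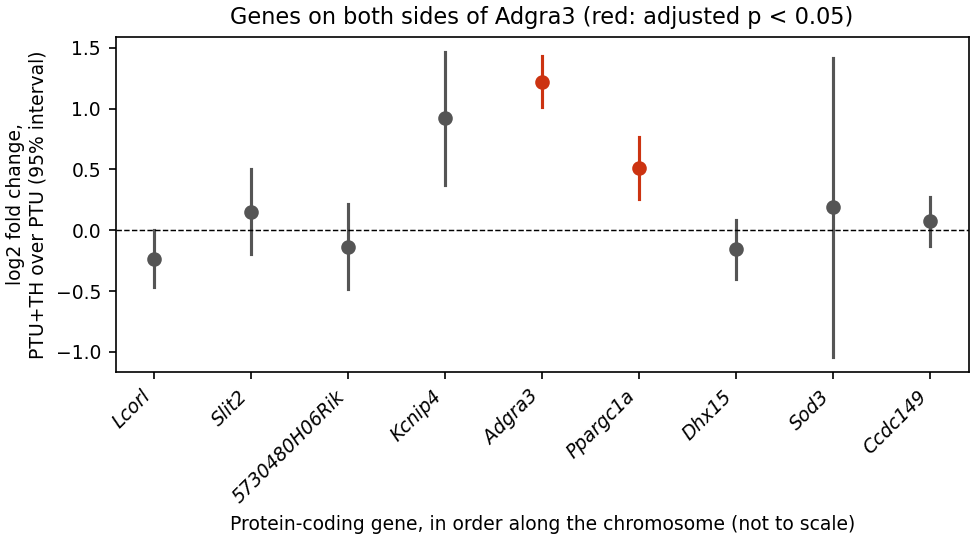
Log2 fold change of PTU+TH over PTU with its 95% interval for Adgra3 and the 4 protein-coding genes on each side, in chromosome order. Adgra3 (1.22), Kcnip4 (0.92) and Ppargc1a (0.51) are next to each other and have intervals above 0, and the next gene on either side does not.

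The latrophilins bind teneurins and FLRT proteins across the synapse. Adgrl3 stood at 746, 812, 1175 and 1100.3 CPM without TH and at 998, 1025, 1153 and 1390.2 CPM in PTU+TH. PTU mice 9 and 10 were low and mice 11 and 12 lay within the range of the PTU+TH group, so the groups overlapped (log2 fold change 0.25, 95% interval -0.15 to 0.65, edgeR adjusted p = 0.663). Adgrl2 stood at 254, 243, 241 and 238 CPM without TH and at 196, 194, 214 and 241 CPM in PTU+TH. Only PTU+TH mouse 16 reached the PTU range, and the gene was not called (log2 change -0.21, 95% interval -0.42 to 0.01, edgeR adjusted p = 0.409). Adgrl1 averaged 53.2 ± 4.95 CPM under PTU alone and 56.5 ± 6.63 CPM after TH (SD, n = 4 each), with a log2 fold change of 0.09. About 76.4% of its body is free of other genes, and reads from the rest cannot be assigned to it with certainty.

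The BAI receptors take part in synapse formation and in the uptake of dying cells, and Adgrb3 binds the C1q-like proteins. Adgrb3, the most abundant member, stood at 877, 1047, 1567 and 1408 CPM without TH and at 1249, 1246, 1364 and 1606 CPM in PTU+TH. As with Adgrl3, PTU mice 9 and 10 were the lowest of all libraries and mice 11 and 12 were not, and the gene was not called (log2 change 0.16, 95% interval -0.27 to 0.58, edgeR adjusted p = 0.844). Adgrb1 averaged 125 ± 20.5 CPM under PTU alone and 134 ± 6.12 CPM in PTU+TH, and Adgrb2 averaged 91.6 ± 7.22 and 83.3 ± 8.29 CPM (SD, n = 4 each). Their log2 fold changes were 0.10 and -0.14.

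Of the Celsr receptors, Celsr3 is needed for long axon tracts and Celsr2 for dendrite growth and facial motor neuron migration. Celsr3 averaged 207 ± 29.4 CPM under PTU alone and 196 ± 19.8 CPM in PTU+TH, and Celsr2 averaged 69.4 ± 6.44 and 70.9 ± 3.04 CPM (SD, n = 4 each). Their log2 fold changes were -0.07 (95% interval -0.33 to 0.18) and 0.03 (-0.16 to 0.22). Celsr1, which is known from planar polarity in epithelia and progenitors, was low, with 2.08, 1.88, 2.28 and 1.88 CPM under PTU alone and 2.61, 2.65, 2.59 and 2.52 CPM in PTU+TH. Its groups, which rest on 43 to 77 counts per library, did not overlap. The gene was not called (log2 change 0.36, 95% interval -0.12 to 0.83, edgeR adjusted p = 0.578).

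Adgrd1 (GPR133), a receptor coupled to the stimulatory G protein, had the largest negative fold change of the tested members. It stood at 4.88, 5.34, 6.38 and 5.47 CPM without TH and at 3.63, 2.72, 3.54 and 5.23 CPM in PTU+TH. Mouse 16 of the PTU+TH group reached the PTU range while the other 3 lay below it, and the gene was not called (log2 change -0.55, 95% interval -1.03 to -0.07, edgeR adjusted p = 0.294). The adjusted p lay between 0.171 and 0.609 over the 19 alternatives.

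**Figure D4:**
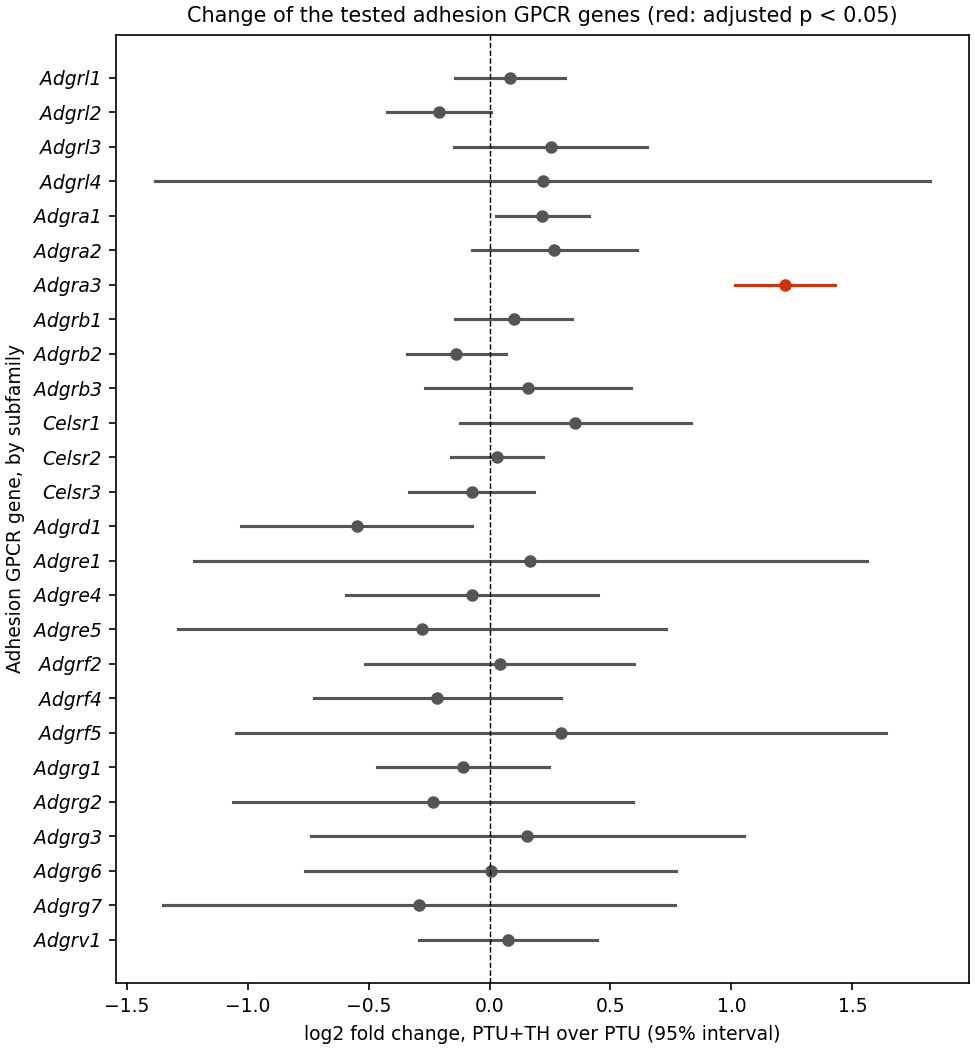
Log2 fold change of PTU+TH over PTU (point) with its 95% interval (line, not adjusted for the number of genes) for the 26 tested adhesion GPCR genes, grouped by subfamily. Adgra3 at 1.22 is the one gene past the adjusted threshold, and the widest intervals belong to Adgrl4, Adgre1 and Adgrf5.

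Several members are known from cell types outside the sort. Adgrl4 (ELTD1) and Adgrf5 (GPR116) are receptors of blood vessel endothelium. Adgrl4 stood at 4.19, 11.6, 3.46 and 0.79 CPM without TH and at 7.80, 2.78, 9.95 and 2.998 CPM in PTU+TH. Adgrf5 stood at 2.95, 10.7, 2.52 and 1.05 CPM without TH and at 7.13, 2.89, 6.996 and 4.28 CPM in PTU+TH. Both were highest in mouse 10, lowest in mouse 12 and among the next highest in mice 13 and 15. The 6 endothelial markers (Cldn5, Kdr, Flt1, Pecam1, Cdh5 and Tek) summed to 54.1, 152, 44.5 and 33.5 CPM under PTU alone and to 79.9, 33.6, 108 and 47.4 CPM in PTU+TH. All 6 were tested, 0 were called and none was at 0 in all libraries, and 5 of the 6 were highest in mouse 10. The 4 pericyte markers were all highest in mouse 10 and summed to 15.8 to 79.4 CPM under PTU alone and 14.0 to 59.7 CPM in PTU+TH. Neither receptor was called (log2 fold changes 0.22 and 0.30, edgeR adjusted p = 0.958 and 0.921), and without mouse 10 their log2 fold changes were 1.06 and 1.29. The part of vessel nuclei or RNA in these values was not tested.

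**Figure D5:**
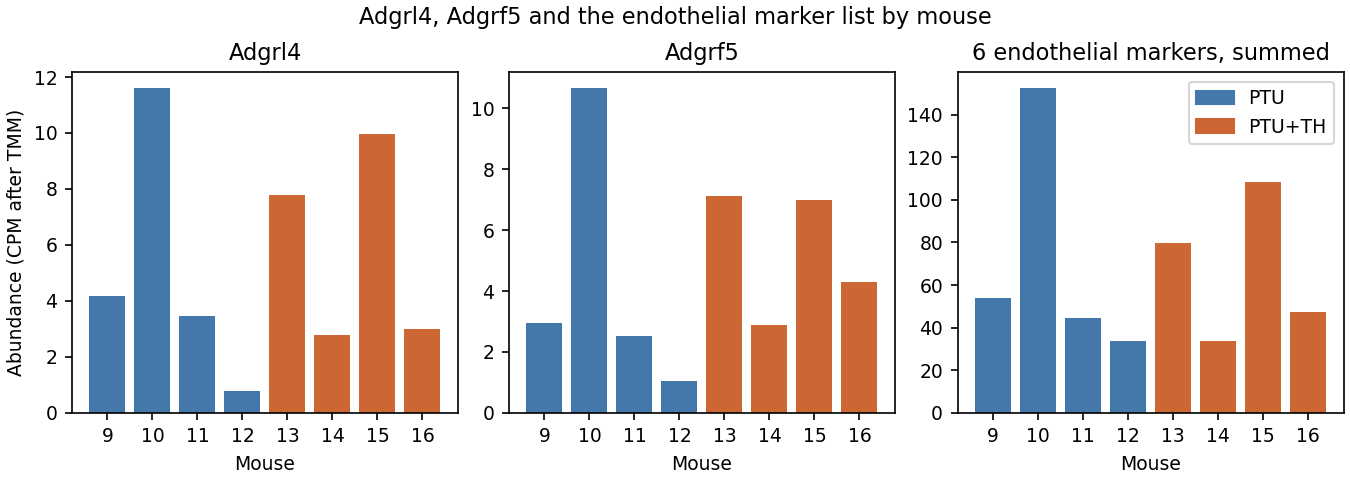
Abundance in CPM of Adgrl4, Adgrf5 and the summed 6 endothelial markers in each mouse, with PTU mice 9 to 12 and PTU+TH mice 13 to 16 in different colours. All 3 panels are highest in mouse 10 (11.6, 10.7 and 152 CPM) and are again high in mice 13 and 15.

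Adgre1 encodes F4/80, the classical macrophage antigen, and stood at 1.13, 0.49, 0.99 and 0.35 CPM without TH and at 0.30, 0.41, 2.23 and 0.43 CPM in PTU+TH. It was highest in mouse 15, where 5 of the 6 tested microglia markers were also highest. These markers summed to 50.4 to 71.2 CPM under PTU alone and 60.8 to 80.6 CPM in PTU+TH, and 0 of 6 were called, against 2.12% of all genes. P2ry12, a defining marker that lies inside another gene, was listed at 0 in all libraries. Adgre5 (CD97), the receptor for CD55 on leukocytes, stood at 1.24, 2.90, 0.74 and 1.22 CPM without TH and at 2.02, 0.76, 0.68 and 1.62 CPM in PTU+TH, again highest in mouse 10. Adgre4 averaged 3.18 ± 0.78 and 3.01 ± 0.52 CPM (SD, n = 4 each). None of the 3 was called, with log2 fold changes of 0.17, -0.28 and -0.07, and the part of immune cells in these values was not tested.

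Adgrg1 (GPR56), which acts in cortical development and in glial precursors, was the most abundant member of its subfamily, at 21.6 ± 5.05 CPM under PTU alone and 20.1 ± 3.11 CPM after TH (SD, n = 4 each) and had a log2 change of -0.11 (edgeR adjusted p = 0.883). It was highest in PTU mouse 9, at 28.3 CPM, where the astrocyte list summed to 338 CPM, and next highest in PTU+TH mouse 15, at 24.7 CPM, where that list summed to 533 CPM. In the other 6 libraries the receptor stood between 16.8 and 22.7 CPM and the list between 291 and 407 CPM, and the part of astrocytes in these values was not tested. Of 7 astrocyte markers, 6 were tested and 0 were called, against 2.12% of all genes, and Gfap, which lies inside another gene, was listed at 0. Adgrv1, a very large receptor of the Usher protein complex, averaged 12.0 ± 2.65 and 12.6 ± 1.59 CPM (SD, n = 4 each). Adgrg7 stood at 0.80, 0.49, 0.45 and 1.09 CPM without TH and at 0.34, 0.79, 0.27 and 0.90 CPM in PTU+TH, values that rest on 6 to 25 counts per library. Adgrg6 (GPR126), the receptor required for Schwann cell myelination, Adgrg2 and Adgrg3 averaged between 1.42 and 2.16 CPM in either group. Adgrf2 and Adgrf4, both on chromosome 17, averaged 6.56 ± 2.47 and 5.83 ± 1.95 CPM under PTU alone and 6.72 ± 1.003 and 4.999 ± 0.84 CPM after TH (SD, n = 4 each). None of these genes was called, and their log2 fold changes ran from -0.29 in Adgrg7 to 0.16 in Adgrg3.

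The precision differed widely between members. In 17 of the 26 both ends of the 95% interval lay within a factor of 2 of no change, and in 10 within a factor of 1.5, Celsr2, Adgrl1, Adgrl2 and Adgra1 among them. For Adgrl4, Adgrf5 and Adgre1 the intervals ran from log2 fold changes of -1.38 to 1.82, -1.05 to 1.64 and -1.22 to 1.56, so changes by a factor of 2 in either direction lie within them.

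Genes that act with the receptors were taken from 5 lists written from general knowledge, among them ligands, intracellular adaptors, polarity and Wnt7 partners, and the Usher complex. Of 87 genes, 78 were tested, 0 were called higher and 1 lower, against 1.49% and 0.634% of all genes, with a median log2 fold change of 0.02. At an unadjusted p under 0.05 there were 13 of the 78, against 12.8% of all genes, with 3 ligands, 4 adaptors, 4 polarity or Wnt7 genes and 0 Usher genes among them. DESeq2 called 3 of the 78, which were Wnt7a, Unc5a and Shank2. In 2 of the 78 all PTU+TH libraries lay above all PTU libraries, against 4.68% of all genes, and in 7 they lay below, against 4.03%. Flrt1, Flrt3, C1ql1, Prnp and Gnaz, of which Flrt1 and Flrt3 encode latrophilin ligands, were listed at 0. Their bodies lie inside other genes, wholly or, for Prnp, all but 0.1%.

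Wnt7a, the ligand sensed by Adgra2 with Reck, fell, with means of 21.5 ± 2.43 and 13.3 ± 3.14 CPM (n = 4 each, SD; log2 change -0.70, SE 0.17, edgeR adjusted p = 0.0478). Its libraries stood at 21.2, 22.6, 23.8 and 18.2 CPM without TH and at 12.5, 9.78, 13.4 and 17.4 CPM in PTU+TH, with mouse 16 close to mouse 12. The call is at the edge of the threshold. It was lost when any library other than mouse 16 was left out (adjusted p from 0.0527 without mouse 9 to 0.133 without mouse 15), and in 4 of the other 11 alternatives. In the same list of 16 tested genes, 7 had log2 fold changes above 0 and 9 below (median -0.03). Reck, which binds Wnt7 for the receptor, had 62.8 ± 3.32 and 53.7 ± 2.04 CPM, and Ankrd6 had 36.4 ± 3.11 and 29.1 ± 3.08 CPM (SD, n = 4 each). Neither was called (edgeR adjusted p = 0.23 and 0.192), and with Wnt7a they were the 3 of the 16 whose PTU+TH libraries all lay below all PTU libraries, against 4.03% of all genes.

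Among the ligands, 24 of 30 were tested, 8 with log2 fold changes above 0 and 16 below (median -0.06), and 0 were called. The 4 teneurins, the main latrophilin ligands, had log2 fold changes from -0.39 for Tenm2 to -0.07 for Tenm1, with wide spreads. Unc5a, a netrin receptor of a family that binds FLRT proteins, had 37.9 ± 2.23 and 29.0 ± 3.38 CPM (n = 4 each, SD; log2 change -0.39, edgeR adjusted p = 0.0898). Its groups did not overlap, and DESeq2 called it (adjusted p = 0.031). Among the adaptors, all 16 were tested, 12 had log2 fold changes above 0 and 4 below (median 0.14), and 0 were called. Shank2, a postsynaptic scaffold of a family that binds latrophilins, had 160.1 ± 13.9 and 206.5 ± 16.0 CPM (n = 4 each, SD; log2 change 0.37, edgeR adjusted p = 0.0835), and passed with DESeq2 (0.0162) and with mouse number as a covariate (0.0248). Dlg1, the scaffold bound by Adgra3, had all PTU+TH libraries above all PTU libraries, at 133 ± 7.56 and 155 ± 13.7 CPM (SD, n = 4 each), without being called (log2 change 0.22, edgeR adjusted p = 0.32). Of the 16 adaptors, 2 had groups apart in this direction, Shank2 and Dlg1, and 2 in the other, Elmo1, which couples BAI receptors to Rac, and the scaffold Magi3, where 4.68% and 4.03% of all genes did so. Elmo1 and Magi3 had log2 changes of -0.36 and -0.26 and were not called (edgeR adjusted p = 0.182 and 0.191).

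Gna12 and Gna13, G proteins to which several adhesion GPCRs couple, had log2 fold changes of 0.07 and 0.03, and neither was called. Gnai2, an inhibitory G protein, was not called either, with 52.1 ± 6.92 and 38.6 ± 6.29 CPM (n = 4 each, SD; log2 change -0.43, edgeR adjusted p = 0.126). Of the 5 Usher complex genes, which join Adgrv1 in hair cells and photoreceptors, 4 were tested and 0 called. Whrn had the smallest p, with 57.1 ± 6.60 and 65.8 ± 5.41 CPM (n = 4 each, SD; log2 change 0.20, edgeR adjusted p = 0.444).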

How the data were processed

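The authors deposited 1 file per mouse, with the raw read count of each gene symbol. Bowtie2 2.5.3 and the builds mm10 and GRCm38 are named in the submitters' processing notes; the counting program, annotation, use of strand and treatment of introns are not given in the sources used here. All 55341 symbols match GENCODE M21 (GRCm38), which gave positions. Per the deposited counts, all 1265 protein-coding genes wholly inside another gene were at 0. cDNA came from SMART-Seq v4 and libraries from Nextera XT, per the labels' protocols.

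The test was that of edgeR 4.0.16 under R 4.3.3 (filterByExpr, TMM, robust quasi-likelihood, group as the only term), two-sided, with Benjamini-Hochberg adjustment over 17355 genes and a threshold of 0.05. The SE is the log2 fold change divided by the square root of F. CPM was computed from the counts. Scripts were tested on simulated data. All pairs of libraries within a group differed by more than sampling noise. Alternatives are given at the end, DESeq2 1.42.0 and limma 3.58.1 among them. Members past the test and those with the 6 largest fold changes are given by library; from each partner list, the genes past the test, and otherwise that with the smallest p, are named. The summary of 1 partner list is not reported here. Adgra1, Adgra2, Adgrb3, the latrophilins, the genes next to Adgra3 and further partners were added after their values were seen. Members and lists were chosen with earlier results of these data known.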

Additional observations from a re-analysis of the deposited data

Results flagged for a closer look

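In 86 sets of 4 values (the 26 tested members, the partner genes Unc5a, Shank2, Gnai2, Wnt7a and Whrn, and the sums of the 12 marker lists, in each group), 6 sets had a library far from the other 3 of its group, where chance gives about 5% of sets. The values came from 3 libraries, those of mice 9, 13 and 15. Adgrb2 had 95.7 CPM in PTU+TH mouse 13 against 78.5 to 80.1 in the other 3. Adgre1 had 2.23 CPM in PTU+TH mouse 15 against 0.30 to 0.43. Adgrg1 had 24.7 CPM in PTU+TH mouse 15 against 18.0 to 19.1. Adgrg2, a gene on the X chromosome, had 0.45 CPM in PTU+TH mouse 15 against 1.77 to 1.82, while mouse 16, also without Y-linked counts, had 1.81. Adgrg3 had 2.78 CPM in PTU+TH mouse 13 against 1.04 to 1.34. The list of GABAergic markers summed to 1253 CPM in PTU mouse 9 against 1136 to 1146.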

How the results depend on the processing

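No paired analysis was possible because no number is shared, the PTU mice being 9 to 12 and the PTU+TH mice 13 to 16. The number of adhesion GPCR genes called was 1 under all 19 alternatives, and no member other than Adgra3 was called in any. The count over all genes, 368 (70.1% higher), was 723 (60.7% higher) with DESeq2, 623 with mouse number as a covariate, 129 (82.2% higher) with Y-linked counts as a covariate, 58 (89.7% higher) in the 6 libraries with Y-linked counts and 107 (88.8% higher) without mice 10 and 15, an alternative chosen after seeing the data. Leaving out a library gave 182 (without mouse 15) to 499 (without mouse 9) genes, and more than 1.5 times fewer also without mouse 12 (233), 13 (238), 14 (227) or 16 (209). The partner lists had 0 called with upper quartile scaling, library totals, the 6 libraries or without mice 10 and 15, 3 with DESeq2, 4 with mouse number, and 0 to 1 when a library was left out. Some alternatives hold fewer libraries by construction; otherwise the cause was not tested. The median log2 fold change over all genes shifted by -0.021 with library totals, and by less with the other scalings.

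Of the 26 tested members, 11 kept their direction throughout and 15, all uncalled, did not. With Y-linked counts as a covariate and in the 6 libraries with them, log2 fold changes were -1.04 and -1.04 for Adgre1, -0.0079 and -0.0069 for Adgrf2, 0.056 and 0.057 for Adgrg2, -0.061 and -0.060 for Adgrl1, -0.012 and -0.011 for Adgrv1, -0.012 and -0.011 for Celsr2, and 0.045 and 0.046 for Celsr3. Limma voom gave -0.12 for Adgre1 and -0.13 for Adgrg6. Adgrg6 was at -0.020 with library totals and -0.0013 with mouse number. Without mice 10 and 15 values were 0.44 for Adgre5, -0.11 for Adgrf2, 0.0068 for Adgrg2, -0.00012 for Adgrl1 and -0.11 for Adgrv1. When a library was left out, ranges crossing 0 were -0.96 to 0.47 for Adgre1, -0.17 to 0.10 for Adgre4, -0.60 to 0.24 for Adgre5, -0.17 to 0.25 for Adgrf2, -0.33 to 0.030 for Adgrf4, -0.026 to 1.29 for Adgrf5, -0.22 to 0.052 for Adgrg1, -0.36 to 0.060 for Adgrg2, -0.25 to 0.38 for Adgrg3, -0.28 to 0.24 for Adgrg6, -0.16 to 1.06 for Adgrl4, -0.013 to 0.17 for Adgrv1 and -0.020 to 0.094 for Celsr2. For members under about 3 CPM, low counts limit what can be seen.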
